A study of Mus musculus with 2 samples.

Results

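Cycling cells were picked out among the CD45+ cells of the adventitia, the outer coat of the wall of the mouse aorta, by the transcripts of single cells. A cell was taken when at least 1 UMI was found for at least 2 of 8 genes of dividing cells (*Mki67*, *Top2a*, *Birc5*, *Cdk1*, *Ccna2*, *Nusap1*, *Ube2c* and *Cenpf*) and when *Csf1r*, *C1qa*, *C1qb* and *C1qc* together gave at least 2 UMIs. A UMI, a unique molecular identifier, stands for 1 captured transcript molecule. The second condition is called the macrophage condition here, since *Csf1r* encodes the receptor for the growth factor CSF1 and the 3 C1q genes encode the chains of a complement protein that tissue macrophages make. In all, 137 of 4504 filtered cells met both conditions, 11 of 306 at steady state and 126 of 4198 on AngII. They were compared with cells that met the macrophage condition and had none of the 8 genes, 155 at steady state and 2608 on AngII. The cells with exactly 1 of the 8 genes, 21 and 227, were in neither group.

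All animals were RankCreRosa26eYFP mice of about 16 weeks. In this strain Cre is made from the *Rank* locus and turns on an eYFP reporter in the cell and in its progeny. It marks macrophages of yolk sac origin, while bone marrow stem cells and the cells that come from them are not marked by design. One library came from untreated mice (steady state, 3 animals pooled) and 1 from mice given angiotensin II, a hormone that raises blood pressure and inflames the arterial wall, at 1.8 µg per kg and min for 10 days (AngII, 2 animals pooled). There is 1 library per condition and no animal can be told from another, so no test between conditions was possible, no p-value was computed, and all intervals (95%) cover counting error only.

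Tissue macrophages of the vessel wall can maintain themselves by dividing in place, and monocytes from the blood can add to them in inflammation. A dividing cell passes from G1, in which D-type cyclins and CDK4 or CDK6 free the E2F factors, to the S phase, in which DNA and histones are made. It then enters G2 and mitosis, in which cyclin A, cyclin B and CDK1, the spindle and the kinetochores act. Genes of the S phase are mostly switched on by E2F. Many genes of G2 and mitosis, but not all, carry a CHR element (cell cycle genes homology region) together with CCAAT boxes, which bind the NF-Y factor. For many of these genes the transcript is present for only a stretch of the cycle, so a cell at another point of the cycle can lack it.

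The libraries held 4009678 UMIs (steady state) and 20481854 UMIs (AngII). A filtered cell had a median of 9105 and 1092 UMIs. Cycling cells were deeper than the cells they were compared with. The median cycling cell had 27178 UMIs in the steady state library and 2289 in the AngII library, against 10748 and 1145 in cells with none of the 8 genes. A deeper cell more easily reaches 2 detected genes, so each cycling cell was paired with 1 cell of nearly the same total. The paired cells, called matched cells, had medians of 26346 and 2287 UMIs. The libraries shared 0 barcodes.

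The 8 genes that define the cells were spread unevenly over them. At steady state 5 of the 11 cells had exactly 2 of the genes and 3 had all 8. On AngII 63 of 126 had exactly 2 and 8 had all 8. *Mki67*, the gene of the Ki-67 antigen, had a UMI in 8 of 11 steady state cells, with 0 UMIs in the lowest cell, 2 in the median cell and 56 in the highest. On AngII it had a UMI in 85 of 126 cells, with 0, 1 and 42 UMIs. *Top2a*, the topoisomerase that untangles sister chromatids, was found in 11 of 11 cells (lowest 1, median 6, highest 63 UMIs) and in 73 of 126 (0, 1 and 51 UMIs). A few cells therefore carried most of these transcripts, and 1 steady state cell alone held 38.6% of the *Mki67* UMIs. *Birc5*, which encodes survivin, was found in 6 and 72 cells, and *Cdk1*, the mitotic kinase, in 7 and 44. The cyclin gene *Ccna2* was found in 6 and 37 cells, *Ube2c*, which helps to destroy mitotic cyclins, in 7 and 45, *Nusap1*, a spindle protein gene, in 4 and 28, and the kinetochore gene *Cenpf* in 4 and 26. *Mki67* lies on chromosome 7 from 135689784 to 135716361 and *Top2a* on chromosome 11 from 98992943 to 99024189, both on the minus strand (GRCm38, GENCODE M21).

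The stretch of 250 bases before the start is shown for *Mki67* and *Top2a*, which helped to define the cells, for *Kif11*, the motor that pushes the spindle poles apart, and for *Mcm5*, a subunit of the replicative helicase, since they stand for the mitosis and replication genes described after them. The sequences are RefSeq promoters on GRCm38.p6, at chr7:135716380-135716629 (minus strand), chr11:99024190-99024439 (minus strand), chr19:37376132-37376381 (plus strand) and chr8:75109259-75109508 (plus strand), read 5′ to 3′ along the gene. Capitals mark a CHR element (spelled TTTGAA, or else spelled TTCGAA), the box named for its letters CCAAT, and an E2F site (spelled TTTGGCGC, or with other middle letters TTTCGCGC, or else spelled TTTCCCGC, or else spelled TTTGCCGC) on either strand, so that CCAAT on the other strand reads ATTGG.
Mki67: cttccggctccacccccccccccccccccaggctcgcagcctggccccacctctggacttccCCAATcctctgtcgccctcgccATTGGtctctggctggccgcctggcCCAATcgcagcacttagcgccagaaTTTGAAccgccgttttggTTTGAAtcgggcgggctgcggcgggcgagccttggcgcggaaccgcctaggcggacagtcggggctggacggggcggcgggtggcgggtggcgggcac
Top2a: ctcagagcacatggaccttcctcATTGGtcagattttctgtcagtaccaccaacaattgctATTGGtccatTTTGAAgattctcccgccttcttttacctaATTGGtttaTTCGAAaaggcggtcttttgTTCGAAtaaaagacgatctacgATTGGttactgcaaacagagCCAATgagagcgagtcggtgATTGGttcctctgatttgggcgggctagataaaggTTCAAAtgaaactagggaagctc
Kif11: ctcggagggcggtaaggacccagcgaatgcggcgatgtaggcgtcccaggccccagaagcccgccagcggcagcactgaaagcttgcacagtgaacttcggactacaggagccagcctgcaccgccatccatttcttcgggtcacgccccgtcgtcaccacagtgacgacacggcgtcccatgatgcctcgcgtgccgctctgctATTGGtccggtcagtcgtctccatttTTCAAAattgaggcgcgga
Mcm5: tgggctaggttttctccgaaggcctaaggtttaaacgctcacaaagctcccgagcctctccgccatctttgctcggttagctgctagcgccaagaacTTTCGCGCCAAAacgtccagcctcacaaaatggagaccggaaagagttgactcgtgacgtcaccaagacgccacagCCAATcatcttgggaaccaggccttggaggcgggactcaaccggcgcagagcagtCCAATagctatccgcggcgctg

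The window of *Mki67* held 2 CHR elements and 3 CCAAT boxes. That of *Top2a* held both motifs several times, where TTCGAA reads the same on both strands. The window of *Kif11* held 1 of each near the start. In *Mcm5* no CHR element was found, and 2 overlapping E2F sites on opposite strands and 2 CCAAT boxes were. Among the 81 of 96 genes of mitotic entry and exit and of the spindle that had a promoter in the table, 34.6% held a CHR element, 69.1% a CCAAT box and 29.6% both. The shares over all 27025 promoters of this length were 17.4%, 34.5% and 6.21%. Among 58 of 70 genes of DNA replication and nucleotide synthesis, 17.2% held an E2F site, against 1.91% of all promoters. The motifs were not separate between the groups, since 62.1% of these replication and nucleotide promoters also held a CCAAT box and 8.64% of the mitosis and spindle promoters an E2F site. Of 20 resident macrophage genes with a promoter, 4 held a CHR element and 0 an E2F site. A match describes the letters only and is no evidence of binding in these cells.

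The cycling cells varied widely in the genes of the macrophage condition. The 4 genes of the macrophage condition took a median of 0.477% of a cycling cell's UMIs at steady state and 0.401% on AngII. In the matched cells the medians were 0.133% and 0.704%, so the groups differed in opposite directions in the 2 libraries. The cycling cells reached from 0.00736% to 1.54% at steady state, and many stood near the lower limit of 2 UMIs. On AngII 39 of 126 had 2 or 3 such UMIs. Among AngII cells with T cell receptor or B cell genes, 44.4% (271 of 611) met the macrophage condition, and of those with neutrophil genes 71.9% (256 of 356) did, against 14.8% and 40.0% (2 of 5) at steady state. The cycling cells were therefore also split by a rule set after the data had been seen. Cells with at least 5 UMIs of the 4 genes, making up at least 0.3% of the cell, are called C1q-rich (7 and 64 cells), and the others C1q-poor (4 and 62 cells). The boundary is not sharp, since 39 of 126 AngII cells lay between 0.2% and 0.4%.

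**Figure D1:**
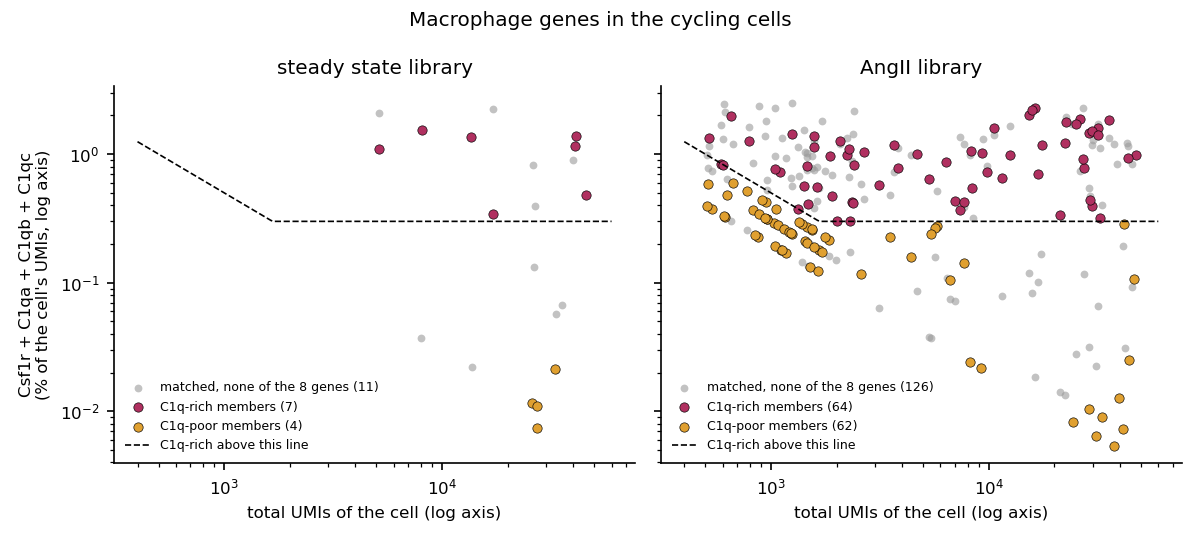
Each point is 1 cell, with its total UMIs on the x axis and the share of its UMIs from *Csf1r*, *C1qa*, *C1qb* and *C1qc* on the y axis (both log axes), for cycling cells above the dashed line (C1q-rich) and below it (C1q-poor) and for matched cells with none of the 8 genes. At steady state 4 deep cells lie between 0.00736% and 0.0212%, and on AngII the points run without a gap across the line.

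The C1q-rich cycling cells carried macrophage genes, some near and some below the level of the matched C1q-rich cells. Summed over 9 macrophage markers, *Apoe* and the lysozyme gene *Lyz2* among them, they stood at 14732 against 25181 CPM (counts per 1000000 UMIs) at steady state (0.585, 0.556 to 0.616) and at 21472 against 33087 CPM on AngII (0.649, 0.636 to 0.662). On AngII *Adgre1*, the gene of the F4/80 antigen, stood at 327 CPM and was found in 42 of 64 cells, against 338 CPM and 46 of 64 in the matched cells. *Fcgr1*, the CD64 gene, stood at 230 against 218 CPM, *Mertk*, a receptor for dying cells, at 64.9 against 86.3 CPM, and the mannose receptor gene *Mrc1* at 1015 against 965 CPM. *Folr2* stood at 211 against 220 CPM. At steady state *Adgre1* was found in 6 of 7 cells, *Folr2* in 6 of 7, and *Lyve1*, the hyaluronan receptor gene of resident macrophages, in 7 of 7. There *Lyve1* stood at 758 against 1639 CPM and *Folr2* at 449 against 887 CPM. Of dendritic, T and NK cell genes on AngII, *Flt3* was found in 1 of 64 cells, *Clec9a* in 0, *Cd3e* in 3 and *Nkg7* in 2. At least 2 of 9 T and NK cell genes were found in 4 of these 64 cells and in 1 of 64 matched cells. For at least 2 of 5 dendritic cell genes the counts were 0 and 1. The neutrophil gene *S100a8* stood at 306 CPM (9 cells) against 410 CPM (16 cells) in the matched cells, and *S100a9* at 285 CPM (6 cells) against 607 CPM (13 cells). Of the neutrophil marker UMIs of these 64 cells 65.8% came from 1 cell. Markers of other types were pooled over T, B and NK cells, neutrophils, and type 1 and migratory dendritic cells. On AngII 46 of 64 C1q-rich cycling cells and 52 of 64 matched cells had 2 or more UMIs over this pool. At steady state 1 of 7 C1q-rich cycling cells had at least 2 of the 9 T and NK cell genes. There 2 of 7 had at least 2 of the 5 dendritic cell genes and 5 of 7 had neither, against 7 of 7 matched cells. B cell markers stood at 1189 against 237 CPM in these steady state cells, with 77.5% of the UMIs in 1 cell. Migratory dendritic cell markers stood at 1189 against 0 CPM, with 96.1% in 1 cell.

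The C1q-poor cells had fewer UMIs of these genes and were shallower on AngII, with a median of 1449.5 against 6687 UMIs. Summed on AngII, the 9 macrophage markers stood at 4080.5 CPM in the C1q-poor cells, against 21472 CPM in the C1q-rich cells. By cell they took a median of 94.4 per 10000 UMIs in the C1q-poor cells and 131 in the C1q-rich cells. Of the 62 C1q-poor cells, 60 had 2 or more such UMIs. *Mrc1* was found in 27 of 62 and *Cd68*, a lysosomal gene of macrophages, in 23. On AngII *Adgre1* was found in 7 of 62 of them (23.2 CPM), *Fcgr1* in 5 (12.7 CPM) and *Mertk* in 1 (2.11 CPM). *Xcr1* and *Clec9a*, which mark type 1 dendritic cells, stood at 131 and 92.8 CPM against 1.32 and 0 CPM in the C1q-rich cells, all from 6 cells each. The T cell genes *Cd3e* and *Cd3d* stood at 127 and 156 CPM, from 9 cells each, with 50.0% and 55.4% of the UMIs in 1 cell. Of the 62 cells, 13 had at least 2 of 9 T and NK cell genes, 7 had at least 2 of 5 dendritic cell genes and 42 had neither. At steady state *Cd209a*, a gene of type 2 dendritic cells, had a UMI in 4 of 4 C1q-poor cells (830 CPM, 73.4% from 1 cell), *Fcgr1* and *Folr2* in 0 of 4, and *Flt3*, the receptor that dendritic cells depend on, in 2 of 4. MHC class II was high in them, with *H2-Aa* at 10259 CPM against 3695 CPM in the C1q-rich cells. Results below are for all cycling cells by the rule, and for the C1q-rich cells against matched C1q-rich cells where the values differ.

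**Figure D2:**
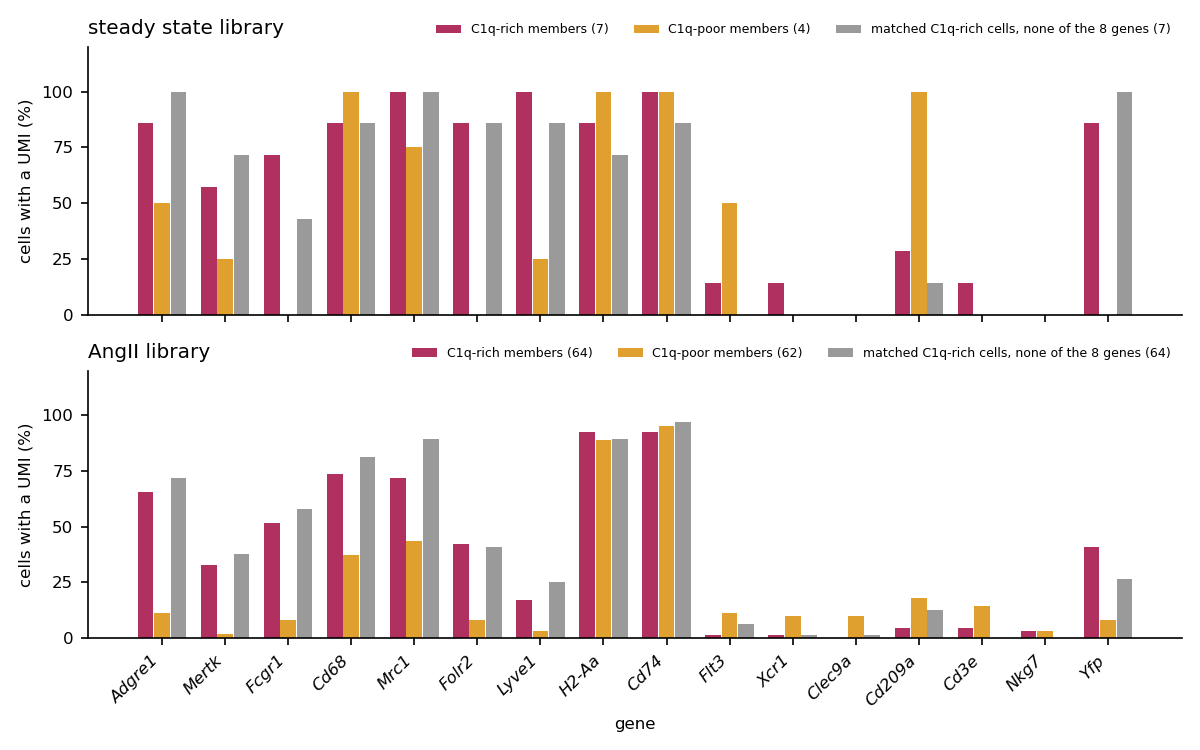
Bars give the share of cells (%) with at least 1 UMI of each gene on the x axis, in C1q-rich cycling cells, C1q-poor cycling cells and matched C1q-rich cells with none of the 8 genes, with the steady state library above and the AngII library below. *Adgre1* was found in 42 of 64, 7 of 62 and 46 of 64 AngII cells, and *Cd209a* in 4 of 4 C1q-poor steady state cells.

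Single cells stood out at steady state. The cell with the most *Mki67* UMIs (56) had all 8 genes, 573 UMIs of the macrophage condition and 25 UMIs of *Yfp*, the reporter transcript, and its 41225 UMIs included 466 of replication and nucleotide genes and 659 of mitosis and spindle genes. Of the B cell marker UMIs of the 11 cells 73.5% came from 1 cell, with 158 UMIs, and of the migratory dendritic cell marker UMIs 96.1% came from 1 other cell, with 196. Both of these cells were C1q-rich and had exactly 2 of the 8 genes. A doublet, a droplet with more than 1 cell, could not be told from a cell with genes of several types here. All 11 steady state cells had 2 or more UMIs over the same pooled markers of other types. So did 10 of 11 matched cells and 290 of 306 filtered cells. On AngII the cycling and matched cells also differed in such markers. Neutrophil markers (8 genes) gave 544 CPM in the cycling cells and 4180 CPM in the matched cells, of which 39 had 2 or more of these UMIs, with a range of 0 to 126 and of 0 to 2944 UMIs per 10000. NK cell markers gave 165 against 3.27 CPM, and T cell markers 507 against 171 CPM. Their part in the results below was not tested. Among C1q-rich cells neutrophil markers gave 755 against 1204 CPM.

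Genes outside the rule were compared by the ratio of CPM in cycling cells over matched cells. A gene was counted as higher at a ratio of at least 2 and as lower at 0.5 or less, when it had at least 30 UMIs in both groups together. These are counts of size, not of a test. Over all genes 10.3% were higher and 9.69% lower at steady state (of 2973), and 7.22% and 3.21% on AngII (of 7536). For the C1q-rich cells these shares were 14.3% and 9.09% (of 1694) and 4.76% and 1.85% (of 6049). The cells were chosen by genes of the cycle, so that higher levels of other genes of the cycle describe the choice.

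Genes of DNA replication were higher throughout the list. All 16 measured genes at steady state and all 42 on AngII were at least 2 times higher, and the summed list was 7.65 times (6.39 to 9.22) and 5.95 times (5.49 to 6.46) the level of the matched cells. The genes of the MCM helicase, which opens the DNA, had ratios from 4.95 (*Mcm3*) to 25.6 (*Mcm7*) on AngII. *Mcm5* had 35 UMIs against 3 at steady state, and on AngII 158 against 15 (10.5 times, 6.17 to 19.2). *Pcna*, the sliding clamp of the polymerases, was 4.07 times higher in both libraries (2.66 to 6.44 and 3.28 to 5.08). *Uhrf1*, which keeps DNA methylation through the S phase, had 18 UMIs against 0 at steady state and 111 against 2 on AngII. *Gins4*, which joins the MCM proteins in the active helicase, had the lowest ratio of the list on AngII, 2.25 (1.35 to 3.86). In the C1q-rich cells 5 of 6 and 29 of 31 genes were higher, and the list stood at 6.08 and 4.68 times.

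In nucleotide synthesis the enzymes for DNA precursors had higher ratios than those of purine synthesis. The list was 2.91 times (2.43 to 3.49) and 2.70 times (2.49 to 2.92) the matched level, with 8 of 10 and 12 of 19 genes higher. *Rrm2*, the small subunit of ribonucleotide reductase, had 41 UMIs against 0 at steady state (at least 12.7-fold higher, with the floor set at 3 UMIs over the group) and 196 against 4 on AngII (48.8 times, 18.8 to 181). *Tyms*, which makes thymidylate, had 36 against 0 and 118 against 4. *Dut*, which removes dUTP, stood at 119 against 7.53 CPM at steady state and 212 against 8.17 CPM on AngII. The purine genes *Gart* and *Atic* had ratios of 1.43 (0.934 to 2.21) and 1.32 (0.886 to 1.98) on AngII, and *Nme1* 1.03.

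Of the lists of the cycle, that of the spindle, the kinetochore and cytokinesis had the highest ratio in both libraries. Its genes stood at 15 times (11.9 to 19.0) and 10.6 times (9.39 to 12) the matched level, with 14 of 14 and 42 of 43 genes higher. *Ckap5*, a microtubule polymerase gene that interphase cells also use, was the 1 gene under 2 times on AngII, at 1.75 (1.15 to 2.70). *Kif11* had 42 UMIs against 0 at steady state and 101 against 0 on AngII (at least 13.1-fold and at least 33.5-fold higher), and was found in 29.4% of the AngII cycling cells. The outer kinetochore gene *Spc24* had 35 against 0 and 111 against 1. Genes of mitotic entry and exit stood at 7.76 times (6.23 to 9.77) and 5.48 times (4.95 to 6.08), with 7 of 7 and 21 of 26 higher. *Aurkb*, the kinase that corrects chromosome attachment, stood at 112 against 3.77 CPM and 63.5 against 3.27 CPM. The 5 genes under 2 times on AngII were *Lin54* at 1.57, *Espl1*, separase, at 1.30, *Bub3* at 1.24 (0.943 to 1.64), *Pttg1*, securin, at 1.17 and *Fzr1*, an activator of the complex that ends mitosis, at 0.747 (0.421 to 1.31). *Pclaf*, a partner of PCNA placed in this list, had 145 UMIs against 0 and 551 against 1 and was found in 57.1% of the AngII cycling cells. The whole list had 749 and 2427 UMIs in the cycling cells, so *Pclaf* held a large part of them. It is also counted with the mitosis genes in the comparison by cell that follows. In the C1q-rich cells spindle genes stood at 13.5 and 6.64 times, with 72.8% of the steady state UMIs in 1 cell. Genes of mitotic entry and exit stood at 6.70 and 3.97 times in them. On AngII 7 of 11 of these were higher and 1 was lower.

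Replication and mitosis transcripts were set against each other in each cell. At steady state 6 cells had more UMIs of replication and nucleotide genes and 5 more of mitosis and spindle genes, and on AngII 69 and 46, with 11 equal. The lists differ in length, so an equal number does not mark an equal state. Among the matched cells of AngII the counts were 93 and 15, with 18 equal. The cycling cells were chosen by 8 genes, many of them genes of mitosis, and the matched cells for having none. The difference in these counts therefore describes the choice. A median cycling cell of AngII held 61.0 UMIs of replication and nucleotide genes and 63.2 of mitosis and spindle genes per 10000, against 11.1 and 4.88 in a matched cell. At steady state these were 43.1 and 32.8 against 10.5 and 6.86. On AngII C1q-rich cells had more replication than mitosis UMIs in 41 cells and fewer in 17, and C1q-poor cells in 28 and 29. The medians per 10000 were 49.1 and 32.6 in the C1q-rich cells and 66.2 and 72.6 in the C1q-poor cells, so both were lower in the C1q-rich cells. These were also deeper, with a median of 6687 against 1449.5 UMIs, and the part of depth was not tested. The cells with 2 of the 8 genes lay between the others. On AngII they held 2584 CPM of replication and nucleotide genes and 1467 CPM of mitosis and spindle genes, against 6838 and 6347 CPM in cells with 3 or more. In cells just outside the rule, with 1 of the 8 genes, these were 1804 and 843 CPM, and in all cells with none of them 1273 and 665 CPM. These groups were set by the 8 genes, so the order of their levels describes the choice as well. Of the 63 AngII cells with exactly 2 genes 47 had 1 UMI of each.

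**Figure D3:**
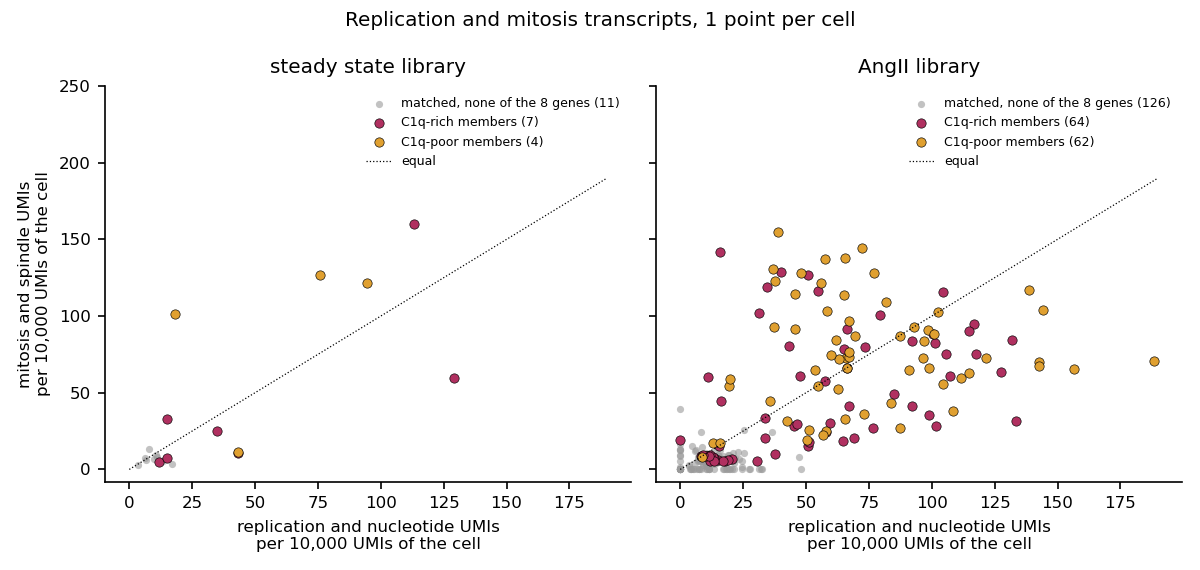
Each point is 1 cell, with its UMIs of replication and nucleotide genes (x axis) and of mitosis and spindle genes (y axis) per 10000 UMIs, for C1q-rich and C1q-poor cycling cells and matched cells with none of the 8 genes. The dotted line marks equal numbers, and several C1q-rich cells of AngII lie among the matched cells near the origin.

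Genes that lead into the cycle were higher by less. The G1 list stood at 2.13 times (1.76 to 2.58) and 1.80 times (1.64 to 1.97), with 5 of 8 and 10 of 15 genes higher. *Ccnd1*, cyclin D1, was 4.46 times (2.48 to 8.60) higher at steady state and 1.35 times (1.08 to 1.68) on AngII. In the C1q-rich cells it stood at 216 against 40.6 CPM and 178 against 47.8 CPM (5.31 times, 2.22 to 15.4, and 3.72 times, 2.56 to 5.53). *Cdk4*, its kinase, was 4.10 and 3.08 times higher, and the E-type cyclins *Ccne1* and *Ccne2* had 76 against 4 and 70 against 1 UMIs on AngII. The other D-type cyclins did not follow. *Ccnd2* stood at 0.740 (0.430 to 1.26) and 0.776, and *Ccnd3* at 0.445 and 0.729. Inhibitors of the cycle were a little lower as a list, at 0.868 (0.783 to 0.961) and 0.704 (0.667 to 0.742), with 0 of 5 and 0 of 9 genes at 0.5 or less. One gene went far the other way: *Cdkn2c*, the p18 inhibitor of CDK4 and CDK6, had 14 UMIs against 2 at steady state and 52 against 4 on AngII (13 times, 4.77 to 49.3). *Cdkn1a*, the p21 gene that p53 switches on, stood at 291 against 569 CPM (0.512, 0.387 to 0.674) and 219 against 389 CPM (0.563, 0.483 to 0.655). *Btg2*, which slows division, stood at 0.744 and 0.711. The list of p53 and the DNA damage response was near the matched level (1.2 and 1.11), and its genes *H2ax* and *Tipin*, which also serve replication, were 7.36 and 6.84 times higher on AngII.

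Chromatin and tubulin genes of dividing cells were higher, 27 of 28 at steady state and 29 of 31 on AngII, with list ratios of 4.72 (4.45 to 5.02) and 3.00 (2.92 to 3.09). *Stmn1*, which takes microtubules apart, was among the genes furthest from the matched cells. It stood at 1197 against 15.1 CPM at steady state (79.5 times, 30.8 to 293) and 690 against 17.2 CPM on AngII (40.2 times, 26.2 to 65.3), and was found in 71.4% of the AngII cycling cells against 10.3% of the matched. *Hmgb2*, a chromatin protein gene, was 5.63 and 7.92 times higher, and *H2az1*, a histone variant gene made throughout the cycle, 2.96 and 2.18 times. Replication histones showed wide ratios, with *H1f5* at 892 against 7.53 CPM and 174 against 3.27 CPM. Histone genes are near copies of each other and their transcripts mostly lack a poly(A) tail, so these values are uncertain. In the C1q-rich AngII cells 16 of 26 genes of the list were higher (2.19 times). *Stmn1* (29.1 times, 16.1 to 58.9) and *Hmgb2* (5.97 times) were among them.

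Genes for growth differed less. Ribosome biogenesis stood at 1.51 times (1.38 to 1.67) and 1.5 times (1.44 to 1.56), with 4 of 14 and 5 of 25 genes higher and 0 lower. *Npm1*, nucleophosmin, stood at 1.34 (1.04 to 1.72) and 1.99 (1.80 to 2.20), and *Dkc1*, which modifies ribosomal RNA, at 3.62 (2.24 to 6.10) on AngII. Oxidative phosphorylation was 1.24 times (1.17 to 1.32) and 1.21 times (1.18 to 1.24) the matched level, with 0 of 26 genes past the fold in either library. Among C1q-rich cells that list stood at 1.82 (1.67 to 1.98) at steady state, with 10 of 22 genes higher. On AngII it stood at 1.18 (1.14 to 1.21) among them, with 0 of 26 higher. Glycolysis was at 0.975 (0.881 to 1.08) and 1.10 (1.06 to 1.14). Growth signals and their receptors stood at 0.760 (0.636 to 0.906) and 0.770 (0.715 to 0.829) as a list, with 0 genes higher. *Csf2ra*, a chain of the GM-CSF receptor, stood at 0.618 (0.447 to 0.851) and 0.929 (0.789 to 1.09).

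**Figure D4:**
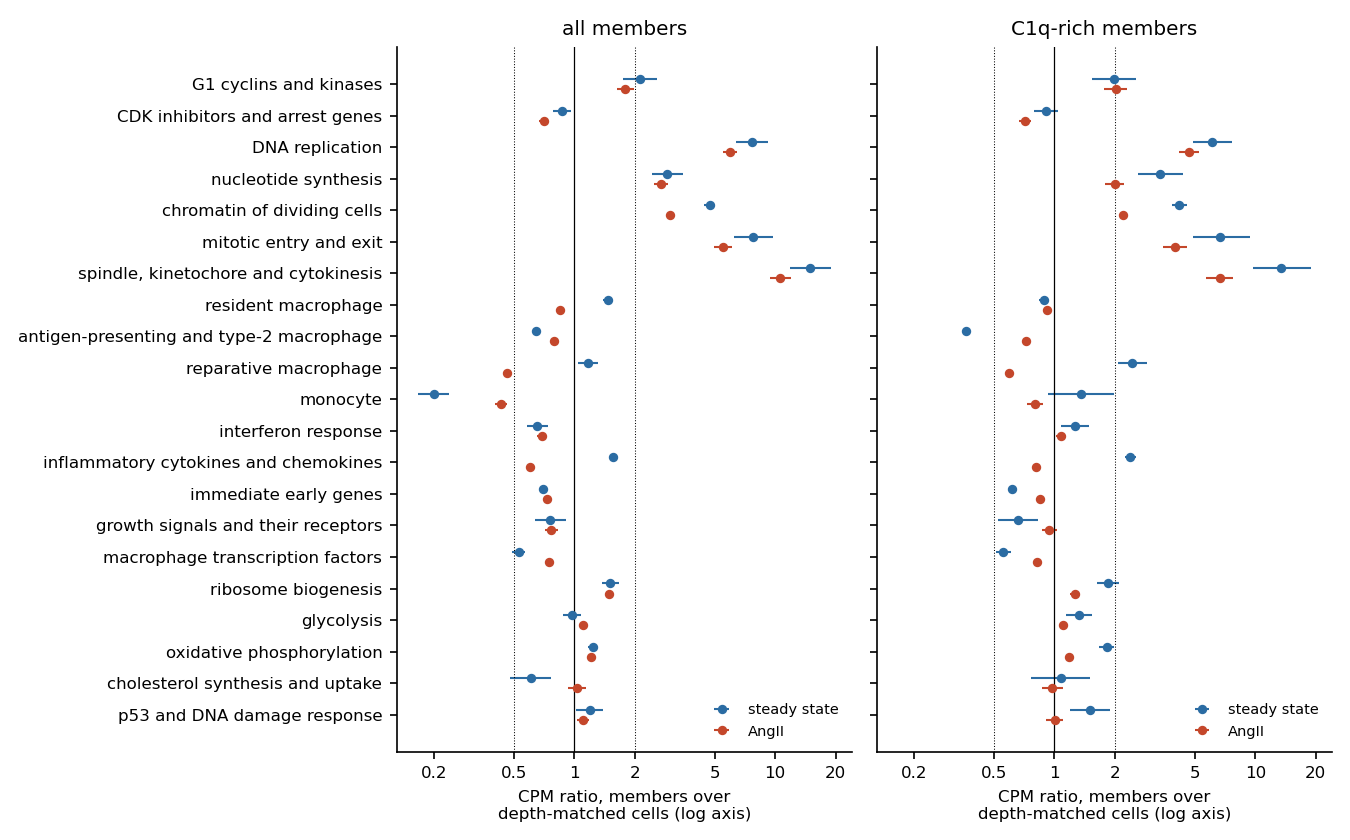
Points give the CPM ratio of cycling over matched cells for each of 21 gene lists on a log axis, with 95% counting intervals as bars, for all cycling cells (left) and C1q-rich cells (right), at steady state (blue) and on AngII (red). Dotted lines mark 0.5 and 2, and the lists of replication, chromatin, mitosis and spindle lie to the right of 2 in both panels.

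Macrophage programmes were mostly at or below the matched level. The resident macrophage list stood at 1.47 (1.38 to 1.57) at steady state and 0.846 (0.815 to 0.878) on AngII, with 3 of 18 and 0 of 19 genes higher and 1 and 1 lower. The steady state value was 0.581 without matching and 0.847 with 3 matched cells each. Among C1q-rich cells both were under 1, at 0.885 (0.837 to 0.936) and 0.916 (0.881 to 0.952). On AngII *Mrc1* then stood at 1.05 (0.949 to 1.17), *Pf4*, a chemokine gene, at 1.08 (0.977 to 1.19) and *Cd163*, a scavenger receptor, at 0.609. At steady state *Lyve1* stood at 0.462 and *Folr2* at 0.506 in the 7 cells.

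The antigen-presenting and type-2 list stood at 0.648 (0.633 to 0.663) and 0.795 (0.785 to 0.805), with 7 of 17 and 5 of 18 genes at 0.5 or less. It stood at 1.01 at steady state against all comparison cells without matching. On AngII it stood at 1.27 without cells with UMIs of other cell types. That setting leaves out cells with 2 or more UMIs over the pooled markers of other types, 80 of the 126 AngII cycling cells. Among C1q-rich cells the list stood at 0.363 (0.351 to 0.376) at steady state and 0.718 (0.706 to 0.730) on AngII. *Retnla*, a secreted protein of type-2 macrophages, held 7948 of the 17482 UMIs of the list in the matched steady state cells. It stood at 3893 against 29928 CPM at steady state (0.130, 0.122 to 0.139) and 1228 against 4254 CPM on AngII (0.289, 0.272 to 0.306). In the C1q-rich cells the ratios were 0.120 and 0.415, while the share of AngII cells with a UMI was 37.5% in both groups. The direction on AngII turned, to 1.83, when cells with UMIs of other cell types were left out, and to 1.21 against all comparison cells without matching. The lysozyme gene *Lyz1* stood at 0.0392 and 0.247, and *Fn1*, fibronectin, at 0.0979 and 0.485. *Clec10a*, a lectin of antigen-presenting cells, stood at 0.334 on AngII and 0.489 among C1q-rich cells. MHC class II differed little on AngII, with *H2-Aa* at 0.842 and *Cd74* at 0.885.

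The reparative list stood at 1.17 at steady state, with 67.5% of its UMIs in 1 cell (0.455 without it), and at 0.461 (0.444 to 0.479) on AngII, with 8 of 16 genes lower. *Spp1*, osteopontin, stood at 279 against 1716 CPM on AngII (0.163, 0.145 to 0.182) and *Arg1*, arginase 1, at 115 against 279 CPM (0.412, 0.336 to 0.503). In the C1q-rich AngII cells they stood at 0.241 (0.213 to 0.272) and 0.529 (0.428 to 0.651), and *Spp1* was found in 32.8% of cycling and 45.3% of matched cells. *Mmp12*, an elastase, went the other way among them, at 2.35 (1.77 to 3.16). The reparative list among C1q-rich cells stood at 2.44 (2.07 to 2.89) at steady state, with 85.5% of the UMIs in 1 cell. On AngII it stood at 0.595 (0.569 to 0.623) among them, with 2 of 14 genes lower and 1 higher. The monocyte list stood at 0.199 (0.166 to 0.238) and 0.431 (0.402 to 0.463). On AngII *Ly6c2*, the marker of classical monocytes, stood at 0.144 and *Chil3* at 0.144. At steady state *Chil3* had 0 UMIs against 102. Among C1q-rich cells the monocyte list stood at 1.35 (0.933 to 1.98) and 0.798 (0.727 to 0.876), and *Ly6c2* on AngII at 0.865 (0.379 to 1.95, 13 against 15 UMIs).

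Inflammatory cytokines and chemokines stood at 1.56 (1.48 to 1.65) at steady state, with 49.8% of the UMIs in 1 cell (0.935 without it), and at 0.601 (0.585 to 0.618) on AngII. *Il1b* stood at 570 against 1924 CPM on AngII (0.296, 0.272 to 0.322, and 1.04 without cells with UMIs of other cell types) and *Ptgs2*, cyclooxygenase 2, at 0.192. The chemokine gene *Cxcl3* had 1 UMI against 414. These are also genes of neutrophils, whose markers were at 544 against 4180 CPM in the same groups. Among C1q-rich cells the list stood at 2.39 (2.24 to 2.56) at steady state, with 53.2% of the UMIs in 1 cell. On AngII it stood at 0.808 (0.782 to 0.834) among them. In these AngII cells *Il1b* stood at 0.515 (0.462 to 0.573), and the chemokines for monocytes *Ccl2* and *Ccl7* at 0.856 and 0.897. *Ccl12* was 3.44 times (2.71 to 4.40) and *Ccl3* 2.05 times (1.48 to 2.85) higher.

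Interferon genes were the 1 macrophage-related list in which many genes were higher among C1q-rich AngII cells. There 8 of 15 genes were past 2 times and 0 were at 0.5 or less, while the summed list was at 1.08 (1.02 to 1.14), as *Ifitm3* had many of the UMIs and stood at 0.712. *Cxcl10*, a chemokine for T cells, stood at 237 against 42.5 CPM (5.58 times, 3.82 to 8.41) and was found in 25% of cycling and 9.38% of matched cells. *Rsad2*, viperin, stood at 83.5 against 9.29 CPM, in 15.6% and 6.25% of cells, and *Isg15* at 164 against 69.0 CPM, in 31.2% and 32.8% of cells. *Cxcl9* had 70 UMIs against 3, in 6.25% and 3.12% of cells. Of the list's UMIs 20.4% came from 1 cell, and the shares of cells with a UMI differed by less than the CPM. Among all cycling cells the list stood at 0.654 (0.578 to 0.739) at steady state and 0.688 (0.655 to 0.721) on AngII, with 4 of 16 genes past 2 times and 1 at 0.5 or less. Among C1q-rich cells at steady state it stood at 1.26 (1.07 to 1.48), with 1 of 4 genes past 2 times and 46.4% of the UMIs in 1 cell.

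Immediate early genes, which respond to stimulation and to the handling of tissue, stood at 0.696 (0.669 to 0.724) and 0.734 (0.717 to 0.750), and at 0.617 and 0.846 among C1q-rich cells. *Ier3* stood at 0.352 (0.296 to 0.416) in the C1q-rich AngII cells and *Klf2* at 0.335 and 0.545. Macrophage transcription factors stood at 0.530 (0.492 to 0.572) and 0.751 (0.725 to 0.778), with 7 of 15 and 4 of 19 genes lower. *Cebpb* stood at 0.197 and 0.427 and *Spi1*, the PU.1 gene, at 0.845 and 0.897. Among C1q-rich cells *Cebpb* stood at 0.553 (0.430 to 0.709) at steady state and 0.641 (0.585 to 0.703) on AngII. In the C1q-rich AngII cells *Spi1* stood at 0.926 (0.790 to 1.08). Cholesterol synthesis and uptake stood at 0.606 and 1.03.

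Genes with the same direction in both libraries were ranked by whichever ratio was nearer to 1. The 12 highest were *H1f5*, *Pclaf*, *H2ac8*, *Stmn1*, *Aurkb*, *Dut*, *Cdca8*, *Kif11*, *Rrm2*, *Cks1b*, *Mcm7* and *Atad2*. They belong to lists of the cycle, which describes the choice of the cells by genes of the cycle. The 12 lowest were *Chil3*, *Ifitm6*, *Retnla*, *Il1b*, *Rras*, *Rara*, *Cebpb*, *Ctsl*, *Ptafr*, *Smpdl3a*, *Clec7a* and *Pld3*. Some of these turned in direction in other settings. Among C1q-rich cells at steady state *Clec7a* stood at 3.44 (1.69 to 7.72), *Il1b* at 2.04 and *Rara* at 1.15. Without cells with UMIs of other types *Retnla*, *Rara* and *Il1b* stood at 1.83, 1.25 and 1.04 on AngII. *Retnla* stood at 1.21 there without matching. After thinning to 2000 UMIs *Clec7a* stood at 1.2 and *Pld3* at 2.0 at steady state. Among C1q-rich cells *Gatm* was the 1 gene of the 12 highest that was in none of the 21 lists. *Gatm*, the first enzyme of creatine synthesis, stood at 169 against 47.4 CPM and 303 against 86.3 CPM (3.56 times, 1.53 to 9.64, and 3.52 times, 2.66 to 4.71), and was found in 56.2% of the AngII cycling cells against 34.4% of the matched. Among the 12 lowest were *Apoe*, apolipoprotein E, at 4895 against 10146 CPM and 9819 against 17228 CPM (0.482, 0.443 to 0.525, and 0.570, 0.554 to 0.586) and the lysosomal protease gene *Ctsl* (0.355 and 0.598). *Apoe* differed in the same direction at steady state and on AngII, and was found in 89.1% of cycling and 98.4% of matched cells on AngII.

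The reporter was read through its transcript *Yfp*, and a cell with at least 1 UMI was called *Yfp*+. At steady state 6 of 11 cycling cells were *Yfp*+ and 6 of 11 matched cells were. All 6 were C1q-rich (6 of 7), where 7 of 7 matched C1q-rich cells were *Yfp*+, and the 4 C1q-poor cells had no *Yfp* UMI. On AngII 31 of 126 (24.6%, 17.4 to 33.1) were *Yfp*+ against 22 of 126 (17.5%, 11.3 to 25.2). Among C1q-rich cells these were 26 of 64 (40.6%, 28.5 to 53.6) and 17 of 64 (26.6%, 16.3 to 39.1), and the intervals overlap. Among C1q-poor cells 5 of 62 were *Yfp*+ (8.06%, 2.67 to 17.8). Lymphocytes outside the macrophage condition, which should lack the reporter, were *Yfp*+ in 8.57% (9 of 105, median 7133 UMIs) and 3.02% (15 of 497, median 1240 UMIs). The level of *Yfp* was 193 against 90.4 CPM at steady state (2.14 times, 1.30 to 3.61, and 1.36 times, 0.770 to 2.44, without the cell holding the most of these UMIs) and 124 against 84.1 CPM on AngII (1.47 times, 1.14 to 1.91). Among C1q-rich cells it was 1.82 times (1.12 to 3.02) and 1.29 times (0.975 to 1.71), and 1 steady state cell held 25 of the 55 UMIs.

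Read the other way, 26 of 319 C1q-rich *Yfp*+ cells on AngII were cycling (8.15%, 5.39 to 11.7) and 38 of 1474 *Yfp*- cells were (2.58%, 1.83 to 3.52). The *Yfp*+ cells were deeper, with a median of 6093 against 1194.5 UMIs, which makes both *Yfp* and the 8 genes easier to find. When each cell was thinned to 2000 UMIs, with shallower cells left out and the *Yfp* call kept from full depth, 12 of 216 (5.56%, 2.90 to 9.50) and 9 of 435 (2.07%, 0.95 to 3.89) were cycling. The difference was in the same direction, and the intervals overlapped. At steady state 3 of 107 *Yfp*+ cells and 0 of 27 *Yfp*- cells were, and the interval for 0 of 27 reached 12.8% (3 counts of 27 are 11.1%).

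The share of cycling cells among those of the macrophage condition was 5.88% (11 of 187, 2.97 to 10.3) at steady state and 4.26% (126 of 2961, 3.56 to 5.05) on AngII, with counting intervals that overlap. For C1q-rich cells it was 5.11% (7 of 137, 2.08 to 10.2) and 3.57% (64 of 1793, 2.76 to 4.54). The libraries differed in depth, and thinning to 2000 UMIs turned the order of the values. They were then 2.05% (3 of 146, 0.426 to 5.89) and 3.45% (28 of 812, 2.30 to 4.95), with 6 of 187 and 1943 of 2961 cells too shallow to be thinned and left out, and with the macrophage condition read again on the thinned cells. At 1000 and 5000 UMIs the values were 2.11% and 2.70% at steady state and 2.82% and 4.10% on AngII, with wide overlap each time. When the macrophage condition was kept from full depth, the shares at 2000 UMIs lay closer together. They were 3.31% (1.23 to 7.08) at steady state and 3.54% (2.49 to 4.86) on AngII. With 1 library per condition a difference between the conditions could not be tested, and depth and cell numbers limit these values further. Outside the macrophage condition, 3 of 119 cells at steady state and 58 of 1237 on AngII had at least 2 of the 8 genes. Neutrophils outside it, which do not divide in tissue, gave 1 of 100 on AngII.

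**Figure D5:**
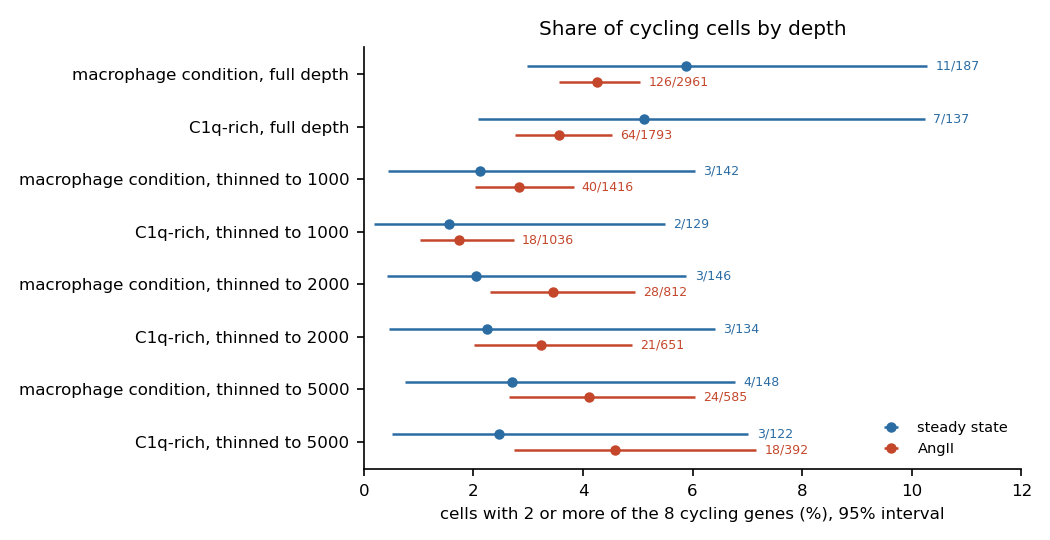
Points give the share of cells (%) with at least 2 of the 8 genes, with 95% Clopper-Pearson intervals and the counts beside them, at steady state (blue) and on AngII (red), at full depth and after thinning to 1000, 2000 or 5000 UMIs. The value at steady state is the higher one at full depth and the lower one after thinning, and the intervals overlap in every pair.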

How the data were processed

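Libraries (10x 3' v3.1) of CD45+ cells from the adventitia of pooled aortas were sequenced. The authors demultiplexed the reads, mapped them with Cell Ranger 3.1.0 to GRCm38.p6 with eYFP added, and deposited raw UMI counts per gene and barcode. Cells needed 300 to 6500 genes and no more than 5% of mitochondrial UMIs, and doublets were left in. The members, the 21 gene lists and the 16 marker lists of other cells were chosen with earlier results of these data known, and the C1q-rich split was added after seeing the data. Each member was matched to the nearest cell in total UMIs, within 25%, without reuse. Summed counts gave CPM. Ratios carry exact conditional Poisson and shares Clopper-Pearson intervals (95%). The floor for a count of 0 was 3 UMIs over the group. Ranked genes had at least 30 UMIs in each library's comparison and a UMI in at least 25% of members (highest) or matched cells (lowest) of each library, leaving out rule, mitochondrial, ribosomal protein and predicted genes. The interval and matching steps were first tried on simulated counts. Software was Python 3.11.15 with pandas 2.3.3, SciPy 1.17.1, NumPy 2.4.6, and Matplotlib 3.10.9 for plots.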

Additional observations from a re-analysis of the deposited data

Results flagged for a closer look

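Some gene lists lay on opposite sides of the matched level in the 2 libraries for all cycling cells. The resident macrophage list stood at 1.47 at steady state and 0.846 on AngII, the reparative list at 1.17 and 0.461, and the inflammatory list at 1.56 and 0.601. The difference between the libraries was not tested. At steady state the reparative and inflammatory lists had 67.5% and 49.8% of their UMIs in 1 cell and stood at 0.455 and 0.935 without it, and the resident list stood at 0.885 among C1q-rich cells.

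The cell filter removed 221 AngII barcodes, and 23 of these met both conditions for a cycling cell, against 0 of the 40 removed at steady state. Of the 23, 20 had more than 6500 genes and 3 more than 5% mitochondrial UMIs. They held from 3188 to 86710 UMIs (median 54299), 18 were C1q-rich, 16 were *Yfp*+ and 22 had 2 or more UMIs of markers of other cell types. Whether they are doublets was not tested.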

How the results depend on the processing

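No paired analysis was possible because there is 1 library per condition and no test. Lists at 2 times or more stayed within 1.5 times of the main count under the 7 alternatives run on AngII and the 6 at steady state. Leaving out cells with UMIs of other cell types left 0 members at steady state, so only the share could be computed there. On AngII it left out 80 of 126 members. A deeper cell reaches 2 such UMIs more easily, so this setting also changes the depth of the cells.

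The cycling share (4.26% on AngII, 5.88% at steady state) was 11.9% and 17.1% with at least 1 of the 8 genes. It was 2.13% on AngII and 3.21% at steady state with at least 3, and 6.36% on AngII in cells with at least 1000 genes. Without cells with UMIs of other types it was 5.05% (3.72 to 6.69) on AngII and 0.0% (0 to 24.7) at steady state. Few cells were left at steady state, where 290 of 306 filtered cells had such UMIs. After thinning the cycling share was 7.76% on AngII with at least 1 gene. The *Yfp* ratio was 2.99 on AngII without cells of other types, with a wide interval (0.747 to 17.2). At steady state it was 1.21 (0.893 to 1.62) unmatched and 3.65 (1.85 to 7.85) with at least 3 genes.

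Genes at 0.5 or less (3.21% on AngII) were 6.39% unmatched, 6.51% with at least 3 of the 8 genes, 11.2% without cells of other types, 1.85% in C1q-rich cells, 5.08% when thinned and 5.65% with a minimum of 10 UMIs. At steady state (9.69%) they were 15.3% unmatched. Genes at 2 or more were 4.76% in C1q-rich AngII cells and 6.75% unmatched at steady state. Lists at 0.5 or less (2 on AngII) were 1 unmatched and 0 in C1q-rich cells, and at steady state (1) they were 2 unmatched and 3 with at least 3 genes.

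Some single values changed direction. In C1q-rich cells at steady state *Clec7a* stood at 3.44, *Il1b* at 2.04, *Rara* at 1.15, the monocyte list at 1.35, interferon at 1.26, cholesterol at 1.07 and the resident list at 0.885, and on AngII interferon stood at 1.08. When thinned, *Clec7a* stood at 1.2, *Pld3* at 2.0, the inhibitors at 1.29 and the reparative list at 0.951 at steady state, and p53 at 0.940 on AngII. On AngII without cells of other types *Il1b* stood at 1.04, *Rara* at 1.25, *Retnla* at 1.83, the inhibitors at 1.21 and the antigen-presenting list at 1.27, and *Retnla* stood at 1.21 unmatched. At steady state the antigen-presenting list stood at 1.01 and the resident list at 0.581 unmatched, the resident list at 0.847 with 3 matched cells each, the reparative list at 0.768 as a mean of the cells' own CPM and at 0.455 without the cell or the member with the most UMIs, and the inflammatory list then at 0.935. The cause was not tested. Depth limits most the AngII cells, of which 56 of 126 members had under 1000 genes, and at steady state the 11 cells limit every value.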
